A study of Arabidopsis thaliana with 18 samples.

Results

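The genes described here are the genes of the chloroplast genome of Arabidopsis thaliana, taken as every row of the count table whose locus code begins with ATCG. They make up 133 of the 34218 genes in the table. The rows were sorted by the role of their product into genes of photosystem I (5), photosystem II (15), the cytochrome b6f complex (6), the ATP synthase (6), the NDH complex (12), the large subunit of Rubisco (1), plastid ribosomal proteins (26), the plastid RNA polymerase (the rpo genes, 4), other proteins (13), tRNAs (37) and rRNAs (8). The table gives codes only, so gene names were assigned from the standard naming of these codes, and 127 of the 133 codes were matched by name to a gene of the RefSeq plastid annotation. Of the 88 protein-coding rows, 73 had under 50% of their 76-base windows repeated elsewhere and could be counted from uniquely mapped reads. The results below rest on these 73 unless all rows are meant.

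The RNA-seq experiment compared immature zygotic embryos of the accession Col-0 at the cotyledonary stage, cultured as explants on 3 media. The E0 medium was free of hormones and gave seedlings, the ET medium held 1 µM trichostatin A (TSA), an inhibitor of histone deacetylases, and the EA medium held 5 µM 2,4-D, a synthetic auxin. On ET and EA the explants enter somatic embryogenesis, the formation of embryos from body cells. Whole explants were sampled after 5 and 10 d with 3 replicates (a, b and c) in each of the 6 groups, each a pool of many explants with embryogenic and other cells together, so a lower count cannot be told apart between fewer cells, fewer plastids and less RNA per plastid.

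Plastids carry a small genome of bacterial origin. It encodes part of each photosynthetic complex, part of the plastid ribosome and the core subunits of a bacterial-type RNA polymerase (PEP), while the remaining subunits are encoded in the nucleus and imported. PEP needs nuclear-encoded sigma factors and associated proteins and is known to read the photosynthesis genes, whereas phage-type polymerases made in the nucleus (NEP) read the rpoB operon and accD, and many genes can be read by both. psbA, which encodes the D1 protein of the photosystem II reaction centre, has one of the best known PEP promoters. Its promoter is printed here because psbA moved apart from the other plastid genes in the results below. The capitals mark the bacterial promoter boxes, named for their positions 35 and 10 bases before the start of transcription, found by a search for TTGACA and TATNNT at a spacing of 15 to 21 bases, on the strand of the gene, in the 250 bases before each gene.

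psbA (minus strand, Pltd:1530-1559, TAIR10.1, 85 bases before the annotated gene start): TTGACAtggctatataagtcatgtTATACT

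The pair of boxes was found before 6 of 127 plastid genes (4.72%), and psbA was the single protein-coding gene among 84 (1.19%), against 217 of 33054 nuclear genes (0.657%). The other 5 were tRNA genes. Among them, trnY and trnE share the same boxes and the trnV copies of the inverted repeat hold the same sequence, so the count is of genes and not of separate sites. A match describes the letters in this window and shows no use of the site.

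Libraries held 9098758 to 58364735 counts, of which 4.05 to 11.7% fell on plastid rows. Counting error was small at this depth (the widest 95% exact Clopper-Pearson interval of that share was 0.0331 percentage points), and no pair of replicates agreed within sampling noise. The 8 plastid rRNA rows summed to 0 to 42 counts a library, but rRNA was depleted, its reads were filtered out, and the 6 rows with a position lie in the inverted repeat, where no read maps uniquely, so these counts say nothing of rRNA levels. The summed level of 5 green tissue markers was 1829 to 2479 CPM (counts scaled to a common library size) in E0 and 3688 to 9708 CPM in ET at 5 d, with the highest value in ET replicate c. CAB1 and RBCS1A made up most of this sum. PSAD-1 overlapped between the groups, with 136, 336 and 226 CPM in E0 and 643, 602 and 201 CPM in ET, the last in replicate c. Each of the other markers was higher in every ET library than in any E0 library of that day. At 5 d, 3 root hair markers summed to 78.0 to 91.1 CPM in E0 and at most 2.04 CPM in ET, the 6 embryo markers split, with 3 higher and 3 lower in ET, and the endosperm markers FIS2 and FWA were at or near 0 in every library. Of the embryo markers, the regulator LEC1 stood at 0.285 to 0.548 CPM in E0 and 6.90 to 22.9 CPM in ET, while the storage protein gene CRA1 stood at 21170 to 33870 and 3963 to 7402 CPM. ET replicate c at 5 d stood apart among the plastid genes: it was the highest of its 3 replicates for 62 of 73 genes and over 2-fold above both others for 25 of them. EA replicate c at 10 d was over 2-fold above both others for 9 genes. These libraries also held more counts on the 1385 rows without a locus code of the 3 genomes, all of which carry an ENSRNA code, with 3.37% in ET replicate c and 4.09% in EA replicate c against 0.0706 to 0.645% in the other 16. The part of the cell types behind these markers, and of ET replicate c, in the differences below was not tested beyond the fits without that library, nor was that of these rows.

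Plastid transcripts took the largest mean share of the libraries in the TSA culture at 5 d. The share was 9.01% ± 2.35 (SD, n = 3) of all counts in ET against 5.87% ± 0.701 in E0 and 5.72% ± 0.472 in EA. Without psbA, the shares at 5 d were 6.99% ± 2.08, 3.02% ± 0.502 and 3.34% ± 0.241. The single ET values without psbA ran from 5.50 to 9.36% and lay above the whole range of E0 (2.49 to 3.48%) and of EA (3.14 to 3.61%). At 10 d, the shares of all plastid rows were 6.58% ± 1.62 in E0, 7.12% ± 1.07 in ET and 4.88% ± 0.739 in EA, and the ranges of E0 and ET overlapped. The range of ET at 5 d (7.43 to 11.7%) also overlapped those of E0 (4.88 to 8.11%) and ET (6.04 to 8.18%) at 10 d. psbA alone took 50.2% ± 2.47 of the plastid counts in E0 at 5 d but 24.5% ± 2.72 in ET at 5 d, and the ranges (48.6 to 53.1% and 22.2 to 27.5%) were far apart. In EA at 5 d the psbA share was 39.5 to 46.1%. By 10 d it was lower than in E0 at 5 d in every medium, at 29.8 to 36.6% in E0, 31.2 to 35.6% in ET and 25.6 to 33.3% in EA. The EA range of 10 d overlapped that of ET at 5 d. These sums are descriptions and were not tested.

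**Figure D1:**
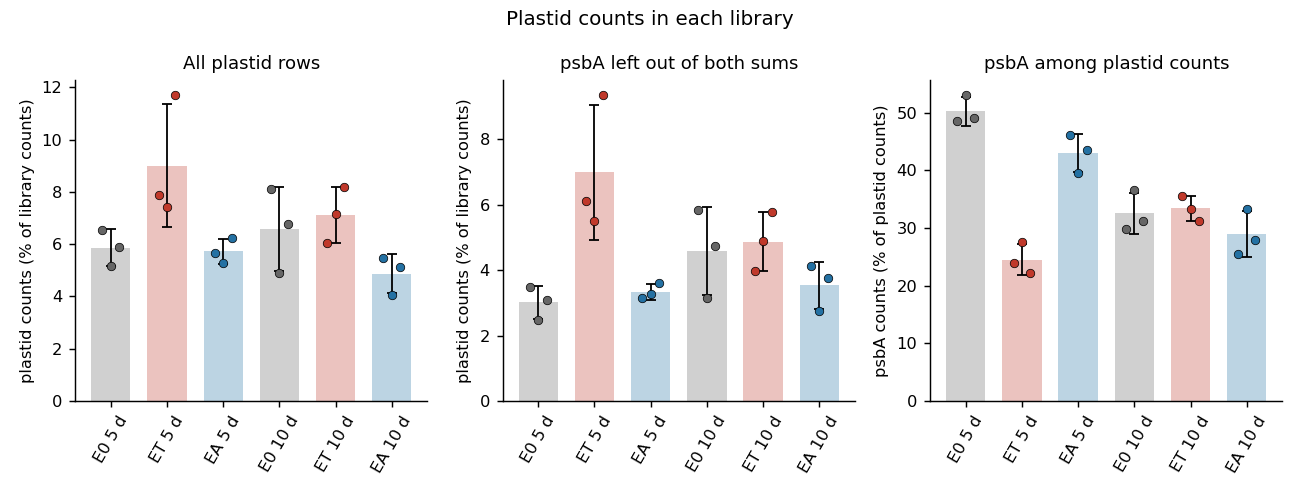
Plastid counts in each of the 18 libraries (points), with the mean (bar) and SD (error bar) of the 3 replicates per group: all plastid rows as % of library counts, the same with psbA left out of both sums, and psbA as % of plastid counts. Without psbA, the ET libraries at 5 d lie between 5.50 and 9.36%, above all others of that day, and the psbA share is lowest in ET and highest in E0 at 5 d.

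Per kilobase of coding length, psbA was the most abundant plastid mRNA and rbcL the next in all 6 groups. In E0 at 5 d the level was 29110 ± 2770 CPM per kb for psbA, 4717 ± 1481 for rbcL and 32.0 ± 11.6 for ndhF, which was last of the 73 genes in every group. rps14 stood in rank 3 in E0 and ET on both days and in EA at 10 d. In E0 at 5 d rpoC2 stood in rank 72 with 33.7 ± 5.46 CPM per kb, which did not differ from ndhF beyond the spread.

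The first comparison asks how TSA changed plastid transcripts at the early stage. In ET against E0 at 5 d, 75 of the 114 plastid rows tested were higher and 0 were lower by edgeR's quasi-likelihood test (Benjamini-Hochberg adjusted p under 0.05, adjusted over 23539 genes), where 23.8% of all genes tested were higher and 21.5% lower. At an unadjusted p under 0.05 the count of lower rows was also 0, and DESeq2 called 1. Among the 73 protein-coding genes 64 were higher, with a median log2 fold change (log2FC) of 1.36 against 0.07 over all genes. Of the 64 calls, 43 stood in each fit without 1 library and 21 were lost in at least 1 of them. Without ET replicate c, 55 rows were higher and 1 lower, and the median of the 73 genes was 0.84.

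The rpo genes, which encode the core of PEP, showed the highest median of all classes, with 4 of 4 higher and a median log2FC of 2.00. rpoB, the β subunit, was at 115, 114 and 142 CPM in E0 and 448, 491 and 753 CPM in ET, so that the groups were well separated (log2FC 2.19 ± 0.31 SE, adjusted p = 2.49e-05). rpoC2, the β″ subunit, rose from 135, 120 and 164 CPM to 481, 574 and 1111 CPM (log2FC 2.37 ± 0.33, adjusted p = 2.55e-05). The log2FC of rpoC1, the β′ subunit, was 1.63 ± 0.24 and that of rpoA, the α subunit, 1.81 ± 0.19. All 4 calls stood without any 1 library, and the class median was 1.80 without ET replicate c.

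Ribosomal protein genes rose in 18 of 18 cases, with a median log2FC of 1.63, and did so without ET replicate c as well (18 of 18, median 1.42). The range ran from rps12 (0.68) to rps18 (2.32). rps4 stood at 204, 168 and 181 CPM in E0 and at 514, 476 and 722 CPM in ET (log2FC 1.63 ± 0.22, adjusted p = 1.74e-05). rpl33 rose from 40.8, 33.1 and 35.6 CPM to 75.2, 88.3 and 262 CPM (log2FC 1.96 ± 0.37), and its log2FC was 1.16 at the lowest when libraries were left out. rps14 rose by the smaller log2FC of 0.89 ± 0.27 (adjusted p = 0.0136), and this call was lost without E0 replicate a.

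The photosystem genes moved less evenly. In photosystem I, 4 of 5 genes rose (median 1.099), and none of the 5 was called without ET replicate c, when the median was 0.39. psaA, a reaction centre protein, stood at 2088, 1581 and 2071 CPM in E0 and at 3459, 3179 and 7422 CPM in ET (log2FC 1.29 ± 0.36, adjusted p = 0.008), and its partner psaB gave 1.099 ± 0.32. The groups did not overlap, but ET replicate c held the highest value by far. In photosystem II, 8 of 15 genes rose and 7 were not called. Among the risen genes were psbB (1.05 ± 0.33) and psbC (1.25 ± 0.34), the inner antenna proteins, psbD (1.27 ± 0.34), the D2 protein, and psbE (1.16 ± 0.23), a cytochrome b559 subunit, while psbB was not called without E0 replicate b, E0 replicate c or ET replicate c.

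psbA did not follow the other genes. It stood at 34300, 29530 and 28930 CPM in E0 and at 18740, 21220 and 31860 CPM in ET, and the groups overlapped through ET replicate c alone (log2FC −0.37 ± 0.23, adjusted p = 0.199). Without that library psbA was called lower (−0.63, adjusted p = 0.0359), and DESeq2 called it lower with all libraries (−0.45). psbN, a small gene for photosystem II assembly that lies on the opposite strand inside the psbB operon, gave −0.04 ± 0.27 (adjusted p = 0.906), and since the strand setting of the counting is not given in the sources used here, its reads and those of the operon cannot be told apart. psbM, a small photosystem II subunit, had the largest log2FC of all called genes (3.20 ± 1.18, adjusted p = 0.0355), which rested on 1 library. Its values were 30.6, 9.91 and 11.52 CPM in E0 and 15.5, 14.9 and 456 CPM in ET.

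Cytochrome b6f, ATP synthase and NDH genes rose in 6 of 6, 6 of 6 and 10 of 10 cases, with medians of 1.36, 1.299 and 1.23. Without ET replicate c, 2, 4 and 5 of them were called. petA, cytochrome f, rose by 1.00 ± 0.31 and petB, cytochrome b6, by 1.14 ± 0.41, and both calls were lost without E0 replicate b and without ET replicate c. atpB, the catalytic β subunit, stood at 755, 546 and 516 CPM in E0 and at 1138, 1000 and 2175 CPM in ET (log2FC 1.25 ± 0.28, adjusted p = 0.00164), and atpA, the α subunit, gave 0.95 ± 0.22. Both of these stood without any 1 library, whereas atpH, the ring subunit, did not (1.68 ± 0.63, 0.40 without ET replicate c). ndhH, a subunit of the peripheral arm of the NDH complex, gave the largest change of its class, from 73.7, 74.3 and 92.9 CPM to 258, 331 and 382 CPM (log2FC 2.01 ± 0.27, adjusted p = 1.4e-05), while ndhD, a membrane subunit, gave the smallest (0.67 ± 0.20).

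rbcL, the large subunit of Rubisco, stood at 9254, 5594 and 5529 CPM in E0 and at 13730, 11850 and 26900 CPM in ET (log2FC 1.36 ± 0.33, adjusted p = 0.00322), with no overlap, and the call stood without each library. Among the other genes, ycf1, which encodes a large protein of the plastid import machinery, rose the most, from 276, 212 and 245 CPM to 1173, 1074 and 1624 CPM (log2FC 2.40 ± 0.27, adjusted p = 3.58e-06). matK, a splicing factor, gave 1.79 ± 0.40, ycf3, a photosystem I assembly factor, 1.3 ± 0.37, clpP, a protease subunit, 0.93 ± 0.23, and ccsA, a cytochrome c assembly factor, 0.88 ± 0.17. accD, a subunit of the acetyl-CoA carboxylase of fatty acid synthesis, was the exception, with 917, 523 and 703 CPM in E0 against 695, 609 and 963 CPM in ET (log2FC 0.08 ± 0.26, adjusted p = 0.825).

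**Figure D2:**
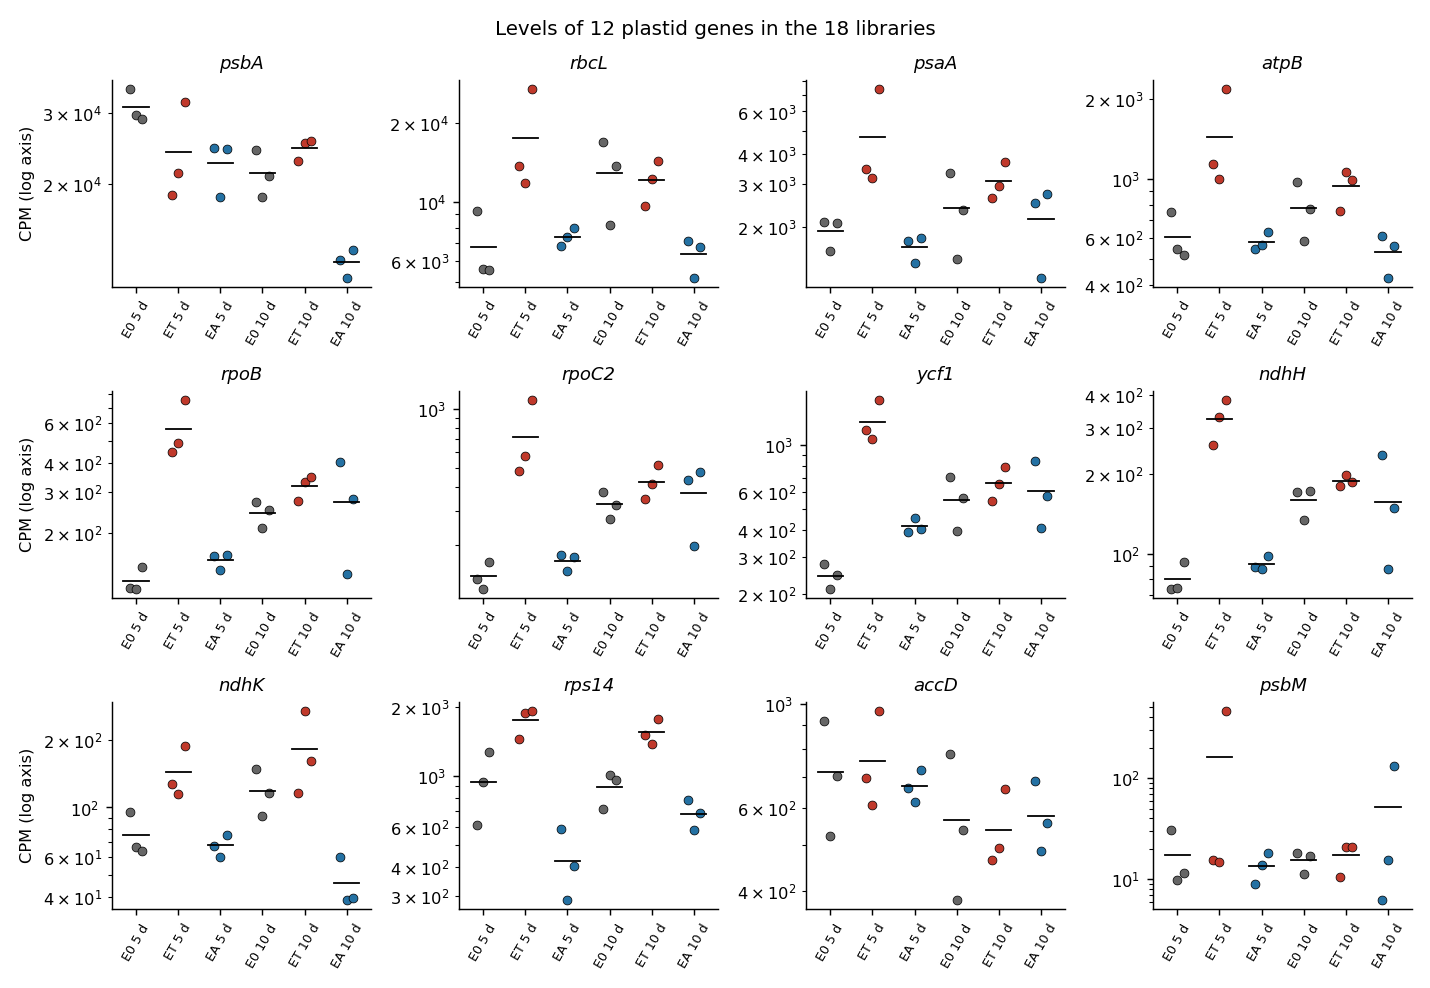
Levels of 12 plastid genes in the 18 libraries, as TMM-scaled counts (CPM) on log axes; points are libraries and lines the mean of 3 replicates. rpoB, rpoC2, ycf1 and ndhH of ET at 5 d lie above all E0 and EA libraries of that day, accD overlaps between groups of 5 d, and psbM of ET at 5 d is high in 1 library only (456 CPM).

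To ask which genes changed relative to the other plastid genes, libraries were also scaled on the 73 plastid protein-coding genes alone. On this scale most nuclear genes shift (the median log2FC of all genes became −1.18 in ET against E0 at 5 d), many of them are called, and the adjustment of p is therefore light, with unadjusted p-values up to 0.0323 among the calls. In ET against E0 at 5 d, 11 of 114 rows were higher and 6 lower, beside 2.97% and 65.3% of all genes tested. Among the 73 protein-coding genes, 10 were higher and 4 lower. The higher genes were 3 of the 4 rpo genes (rpoC2 0.99 ± 0.25, rpoB 0.85 ± 0.26, rpoA 0.53 ± 0.22), 4 ribosomal protein genes, ndhH, ndhA and ycf1 (1.11 ± 0.22, adjusted p = 0.000322). The lower genes were psbA (−1.69 ± 0.21, adjusted p = 2.48e-06), psbN (−1.26 ± 0.35), accD (−1.18 ± 0.21, adjusted p = 0.000109) and ndhD (−0.61 ± 0.20).

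No gene of photosystem I, cytochrome b6f, the ATP synthase or Rubisco was called on the plastid scale, with log2FC between −0.38 and 0.95 in these classes. The calls of psbA, accD, psbN, rpoC2, rpoB, rpl36 and ycf1 stood in each fit without 1 library, and the other 7 were lost in at least 1. Without E0 replicate a, 5 rows were higher, and without ET replicate b, 16 were lower. In the TMM scaling with all libraries psbA, accD and psbN were not called, and psbA was the gene called lower there without ET replicate c.

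**Figure D3:**
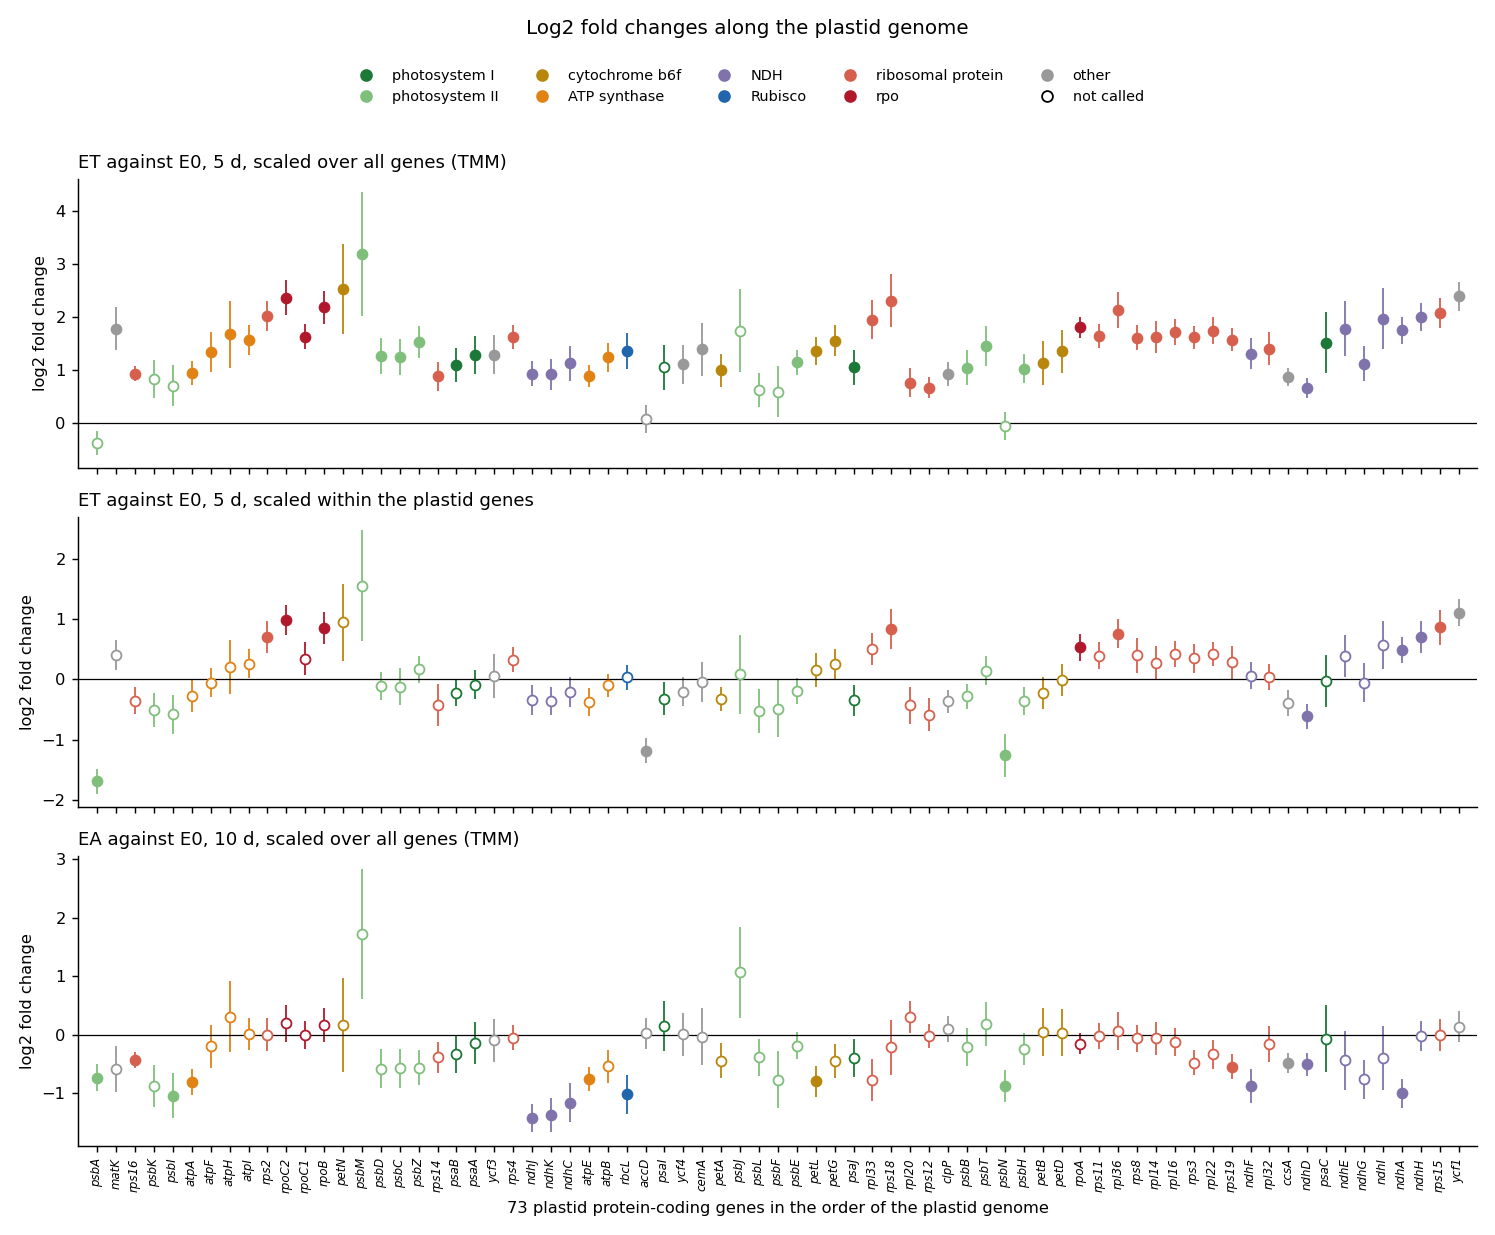
Log2 fold change of 73 plastid protein-coding genes in the order of the plastid genome, coloured by class, for ET against E0 at 5 d on both scales and for EA against E0 at 10 d; filled points were called, open points were not, and bars are SE. In the top panel values run from −0.37 (psbA) to 3.20 (psbM), with the rpo genes and ycf1 from 1.63 to 2.40, and in the bottom panel ndhJ, ndhK and ndhC are the 3 lowest.

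Class shares of the plastid protein-coding counts are given as a description, with no test. From E0 to ET at 5 d, rpo genes went from 1.00% ± 0.148 to 2.56% ± 0.289, ribosomal protein genes from 4.30% ± 0.759 to 7.05% ± 1.16, rbcL from 11.1% ± 2.04 to 17.9% ± 1.94 and photosystem I genes from 8.11% ± 0.775 to 11.4% ± 0.912, with no overlap of the groups, while photosystem II genes went from 61.1% ± 2.81 to 39.4% ± 2.19. With psbA and rbcL left out of the total, most of these differences were gone. The share of photosystem II was then 26.0% ± 2.42 in E0 and 24.6% ± 0.717 in ET, that of NDH genes 5.43% ± 0.249 and 5.29% ± 0.755, and that of ATP synthase genes 12.4% ± 1.15 and 12.2% ± 0.155. The rpo share alone remained apart, at 2.66% ± 0.328 in E0 (2.28 to 2.88%) and 4.53% ± 0.565 in ET (4.01 to 5.13%). This level was not particular to ET at 5 d, since E0 at 5 d was the lowest group. The rpo share was 3.26 to 3.81% in EA at 5 d. At 10 d it was 3.63 to 5.01% in E0, 4.18 to 4.23% in ET and 4.51 to 5.81% in EA.

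The estimates also varied between neighbours on the genome, but no test compared neighbours with each other. Some of them depended on single libraries. On the plastid scale, ET against E0 at 5 d ran over the fits without 1 library from −0.54 to 0.54 for atpH and from −0.88 to 0.26 for psaC. It ran from −0.09 to 0.67 for ndhE and from 0.04 to 0.83 for ndhI. In the clusters that are known operons, rpoB, rpoC1 and rpoC2 of ET against E0 at 5 d gave log2FC of 2.19, 1.63 and 2.37, and the next operon on the same strand gave 2.03 for rps2, 1.57 for atpI, 1.68 for atpH, 1.35 for atpF and 0.95 for atpA. psaJ, rpl33 and rps18, which follow each other, gave 1.06, 1.96 and 2.32. From ndhD to ycf1, in order, the values were 0.67 (ndhD), 1.53 (psaC), 1.79 (ndhE), 1.13 (ndhG), 1.98 (ndhI), 1.76 (ndhA), 2.01 (ndhH), 2.08 (rps15) and 2.40 (ycf1), with no steady order. Over the 73 genes, which share libraries and operons and are not independent, Spearman's rho of these log2FC with the level per kb in an unrelated group, EA at 10 d, was −0.281 and with coding length 0.057. This is a description across genes with no test.

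At 10 d the difference between ET and E0 was small. In ET against E0, 3 of 114 rows were higher and 2 lower, beside 18% and 20% of all genes tested, and the median of the 73 genes was 0.26. The higher genes were rps14 (0.79 ± 0.27, adjusted p = 0.0299), ndhJ (0.71 ± 0.24, adjusted p = 0.025) and rps4 (0.65 ± 0.21, adjusted p = 0.0244), and each of these calls was lost without at least 2 of the 6 libraries. rps14 stood at 720, 1007 and 963 CPM in E0 and 1511, 1377 and 1770 CPM in ET. The 2 lower rows were tRNA genes. Against the other plastid genes 0 of 114 rows were higher (0 at an unadjusted p under 0.05 by edgeR) and 5 lower, beside 7.98% and 19.2% of all genes, with matK as the single protein-coding gene (−0.70 ± 0.25).

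Whether the ET effect differed between the days was tested as an interaction. The log2FC of ET against E0 was lower at 10 d than at 5 d for 31 of 114 rows and higher for 0, beside 6.62% and 7.64% of all genes tested, and the count of higher rows was 0 at an unadjusted p under 0.05 and 0 by DESeq2 as well. The 31 rows held 4 of 4 rpo genes, 13 of 18 ribosomal protein genes, 4 of 10 NDH genes, rbcL, matK and ycf1. The photosystem, ATP synthase and cytochrome b6f genes were not among them. Their class medians were −0.92 (photosystem I), −0.62 (photosystem II), −0.96 (ATP synthase) and −1.01 (cytochrome b6f). rpoA showed the difference at −1.54 ± 0.27 (adjusted p = 0.00132), ycf1 at −2.15 ± 0.37 (adjusted p = 0.00133) and rpoC2 at −1.98 ± 0.45 (adjusted p = 0.00785). Of the 24 protein-coding calls, 18 stood in all 12 fits without 1 library.

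The second question is how auxin changed plastid transcripts. At 5 d, EA against E0 gave 1 higher and 4 lower rows of 114, beside 19% and 20.8% of all genes tested, with a median log2FC of −0.06 over the 73 genes. ycf1 was higher (0.77 ± 0.26, adjusted p = 0.027), at 392.3, 453.4 and 405.8 CPM in EA. rps14 was lower, with 585, 288 and 407 CPM in EA against 613, 943 and 1265 CPM in E0 (−1.14 ± 0.27, adjusted p = 0.00321), and psaJ, a small photosystem I subunit, was lower at 116, 137 and 150 CPM against 357, 247 and 280 CPM (−1.13 ± 0.33, adjusted p = 0.0114). The rps14 and psaJ calls stood without each library, but those of ycf1 and psbN (−0.76 ± 0.27, adjusted p = 0.0317) did not. Scaled within the plastid genes, 1 row was higher and 3 lower, beside 11.8% and 16% of all genes, and ycf1, rps14 and psaJ were the protein-coding ones, of which the psaJ call stood without each library.

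At 10 d, 22 of 114 rows were lower in EA than in E0 and 0 higher, beside 25% and 24.2% of all genes tested, so the share of lower rows (19.3%) was near that of all genes. The count of higher rows was 0 at an unadjusted p under 0.05 and 0 by DESeq2. The median of the 73 genes was −0.22, and 13 rows were lower without E0 replicate a. NDH genes made up 6 of the 16 protein-coding calls (6 of 10, class median −0.82). The neighbours ndhJ, ndhK and ndhC, subunits of the NDH complex encoded side by side, gave the 3 lowest values. ndhJ stood at 120, 90.3 and 121 CPM in E0 and at 47.7, 40.7 and 34.6 CPM in EA (−1.43 ± 0.24, adjusted p = 0.000125). ndhK went from 149, 91.7 and 116 CPM to 59.9, 38.7 and 39.4 CPM (−1.37 ± 0.30, adjusted p = 0.00107). These groups did not overlap, and the calls of ndhJ, ndhK, ndhC, ndhA, atpA and atpE stood without each library. The called gene with the smallest change was rps16 (−0.43 ± 0.14, adjusted p = 0.0162).

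rbcL was lower in EA at 10 d (−1.02 ± 0.33, adjusted p = 0.0174), from 16910, 8221 and 13690 CPM in E0 to 7149, 5183 and 6781 CPM, but the call was lost without E0 replicate a or EA replicate b. psbA was lower as well, with 12970, 11730 and 13690 CPM against 24280, 18610 and 20910 CPM (−0.73 ± 0.23, adjusted p = 0.0139), a call lost without E0 replicate a. The rpo genes were not called, with log2FC from −0.15 (rpoA) to 0.19 (rpoC2) and adjusted p from 0.519 to 0.985. On the plastid scale 8 rows were lower and 0 higher (5 at an unadjusted p under 0.05 by edgeR), beside 17.4% and 32.5% of all genes tested. The protein-coding ones were ndhJ (−1.05 ± 0.25), ndhK (−0.99 ± 0.24), ndhC (−0.79 ± 0.25), rbcL (−0.63 ± 0.21) and ndhA (−0.63 ± 0.21), and those of ndhJ, ndhK and ndhC stood without each library.

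The interaction of EA and day gave 2 lower and 0 higher rows, beside 4.57% and 4.24% of all genes tested, with 1 higher row at an unadjusted p under 0.05 and 0 by DESeq2. The lower genes were ndhA (−1.40 ± 0.35, adjusted p = 0.0209) and ndhJ (−1.18 ± 0.34, adjusted p = 0.0375), and neither call stood in every fit without 1 library.

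The media that induce somatic embryogenesis were also compared directly. At 5 d, 79 of 114 rows were higher in ET than in EA and 0 lower, beside 20.1% and 16.4% of all genes tested, with 0 lower rows at an unadjusted p under 0.05 and 0 by DESeq2. ET libraries enter this comparison and the one with E0, so the values are given side by side. The median of the 73 genes was 1.40 against EA and 1.36 against E0, that of the rpo genes 1.68 and 2.00, and that of the photosystem I genes 1.51 and 1.099. Without ET replicate c, 57 rows were higher than in EA, the medians of the rpo and photosystem I genes were 1.51 and 0.97, 6 instead of 13 of 15 photosystem II genes were called, and rbcL was not called. rps14 gave 2.03 ± 0.28 against EA and 0.89 ± 0.27 against E0. psbA (0.09 ± 0.23) and accD (0.18 ± 0.26) were again not called. Relative to the other plastid genes 7 rows were higher and 6 lower, beside 4.18% and 65.9% of all genes, and psbA (−1.26 ± 0.21), accD (−1.15 ± 0.21) and clpP (−0.55 ± 0.19) were among the lower ones, with petN, a small cytochrome b6f subunit, the highest (1.54 ± 0.65). Of the 11 protein-coding calls 3 stood without each library (psbA, psbZ and accD). petN stood at 83.1, 52.9 and 716 CPM in ET, so its value rested on ET replicate c, and over the fits without 1 library it ran from 0.12 to 1.95.

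At 10 d, 28 rows were higher in ET than in EA and 1 lower, beside 17.6% and 14.4% of all genes tested. The higher genes included 8 of 15 photosystem II genes, 5 of 10 NDH genes, 5 of 18 ribosomal protein genes and 3 of 6 ATP synthase genes, whereas the rpo genes were not called, with adjusted p from 0.0963 to 0.665. ndhJ gave 2.14 ± 0.25 (adjusted p = 7.51e-06), from 47.7, 40.7 and 34.6 CPM in EA to 131, 270 and 142 CPM in ET, and ndhK gave 1.99 ± 0.30 (adjusted p = 0.000106). psbA gave 0.94 ± 0.23 (adjusted p = 0.00506) with 22740, 25260 and 25570 CPM in ET. The groups did not overlap for these 3 genes. The count fell to 14 without ET replicate c, 16 without EA replicate b and 17 without EA replicate c. On the plastid scale 6 rows were higher and 8 lower, beside 7.91% and 37.2% of all genes tested, and ndhJ (1.54 ± 0.26), ndhK (1.39 ± 0.24) and ndhC (1.22 ± 0.25) were the 3 highest protein-coding calls and cemA, a plastid envelope protein, the lowest (−0.88 ± 0.34).

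Between the days, a part of the plastid genes rose in E0, in which seedlings form. In E0 at 10 d against 5 d, 24 of 114 rows were higher and 0 lower, beside 10.4% and 7.1% of all genes tested, with 3 lower rows at an unadjusted p under 0.05 and 1 by DESeq2. The higher genes held 4 of 4 rpo genes (median 1.04), 9 of 18 ribosomal protein genes and 4 of 10 NDH genes. The photosystem and ATP synthase genes were not among them, with class medians of 0.32 (photosystem I), 0.13 (photosystem II) and 0.32 (ATP synthase). rbcL was not called either (0.93). ndhA, a membrane subunit of the NDH complex, rose the most, from 145, 98.9 and 125 CPM to 549, 295 and 443 CPM (1.80 ± 0.26, adjusted p = 0.000201). rpoA rose from 160, 132 and 139 CPM to 317, 302 and 304 CPM (1.096 ± 0.19, adjusted p = 0.000962). Both calls stood without each library, but only 5 of the 20 protein-coding calls did so, and the count of higher rows fell to 5 without E0 replicate b of 5 d.

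In ET, 14 rows were lower at 10 d than at 5 d and 0 higher, beside 8.53% and 12% of all genes tested, with 0 higher rows at an unadjusted p under 0.05 and 0 by DESeq2. This count ran from 5 to 32 when single libraries were left out and was 5 without ET replicate c of 5 d. matK (−1.18 ± 0.40), ycf1 (−0.96 ± 0.26), ndhH (−0.78 ± 0.26) and psbE (−0.68 ± 0.23) were among the 8 protein-coding calls. In EA, 1 row was higher and 1 lower, beside 7.85% and 5.2% of all genes tested. They were rpoC2 (1.16 ± 0.32, adjusted p = 0.0245), from 177, 148 and 173 CPM to 435, 198 and 478 CPM, and psbA (−0.81 ± 0.23, adjusted p = 0.027), and neither call stood in every fit without 1 library.

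Nuclear genes for the same complexes were counted from lists by locus code. In ET against E0 at 5 d, nuclear genes of most of these complexes were higher, as the plastid genes were. The plastid ribosome had 27 of 31 nuclear genes higher (median log2FC 1.01, against 0.07 over all genes), photosystem II 8 of 9 (1.44), photosystem I 8 of 12 (0.95) and the 12 PEP-associated proteins 12 of 12 (1.13), beside 23.8% of all genes tested. For the NDH complex only 4 nuclear genes were listed, so they do not stand for all its nuclear subunits. Of its plastid genes 10 of 10 were higher, but of the 4 listed nuclear genes 0 were higher and 1 lower (median −1.34). NdhL, the 1 called gene, gave −2.24 ± 0.47 (adjusted p = 0.00106). NdhO (−0.63 ± 0.40), NdhN (−1.18 ± 0.71) and NdhM (−1.51 ± 1.01) were not called (adjusted p from 0.192 to 0.24).

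At 10 d the listed nuclear NDH genes were lower in both induced cultures than in E0, where they had risen. NdhL, NdhO, NdhN and NdhM were 4 of 4 lower in ET against E0 (median −3.13) and in EA against E0 (median −4.42), beside 20% and 25% of all genes tested. In E0 they were 4 of 4 higher at 10 d than at 5 d (median 2.97), beside 10.4% of all genes tested. Between the days in ET, NdhL (1.52 ± 0.47) and NdhM (4.39 ± 0.79) rose and the others were not called, and in EA NdhL fell (−1.65 ± 0.42) and the others were not called. The 10 plastid NDH genes had medians of −0.05 in ET against E0 and −0.82 in EA against E0 at 10 d. Between the days their medians were 0.96 in E0, −0.30 in ET and 0.08 in EA. The Rubisco small subunits were 3 of 4 lower in ET against E0 at 10 d (median −2.68) and 4 of 4 lower in EA (−4.81), with rbcL at −0.10 (not called) and −1.02. RBCS1B, RBCS2B and RBCS3B are near-identical copies whose reads may be shared, and they carry these medians. RBCS1A, the remaining small subunit, gave 0.37 ± 0.28 (not called) in ET and −0.91 ± 0.28 (lower) in EA, near the values of rbcL. In EA against E0 at 10 d, 15 of 31 nuclear genes of the plastid ribosome were lower (median −0.61) and 2 of 18 plastid-encoded ones (−0.09), beside 25% of all genes tested.

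**Figure D4:**
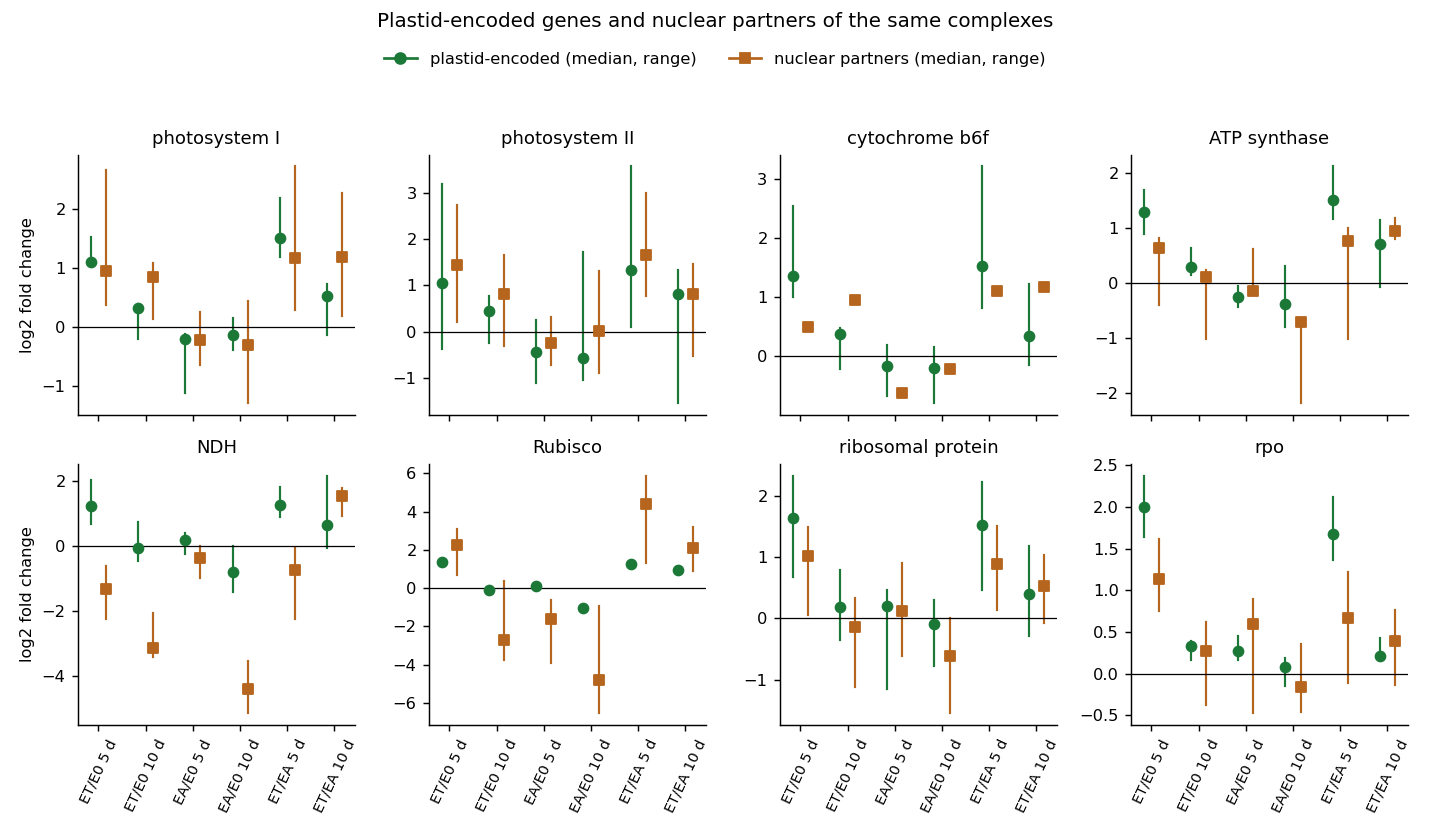
Median (point) and range (bar) of the log2 fold change of plastid-encoded genes (circles) and of listed nuclear genes for the same complex (squares) in 6 comparisons, 1 panel per complex. In the NDH panel the nuclear medians reach −4.42 in EA against E0 at 10 d while the plastid median is −0.82, and in the rpo panel the medians are 2.00 (plastid) and 1.13 (nuclear) in ET against E0 at 5 d.

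The nuclear genes of the transcription machinery changed in more than one direction. Both phage-type polymerases rose in ET against E0 at 5 d. SCA3, which encodes RPOTp, stood at 14.3, 14.7 and 18.3 CPM in E0 and at 49.2, 49.5 and 46.9 CPM in ET (1.63 ± 0.17, adjusted p = 1.44e-06). AT5G15700, which encodes RPOTmp, gave 1.08 ± 0.24 (adjusted p = 0.00158), with 13.7, 17.9 and 16.2 CPM in E0. Higher levels than in E0 were also seen in EA at 5 d. There SCA3 stood at 30.5, 34.0 and 33.2 CPM and AT5G15700 at 26.8, 20.1 and 24.7 CPM, above all E0 libraries of that day. Of the 6 sigma factor genes, 3 rose and 1 fell, beside 23.8% and 21.5% of all genes tested, so the count that fell was near the background. SIGE, known as the sigma factor that reads the blue-light promoter of psbD, fell from 89.8, 73.8 and 75.8 CPM to 17.98, 17.43 and 22.02 CPM (−2.06 ± 0.16, adjusted p = 1.24e-07). SIGF rose from 8.41, 7.38 and 8.34 CPM to 32.1, 27.8 and 40.4 CPM (2.06 ± 0.20, adjusted p = 8.94e-07), SIG2 gave 0.79 ± 0.17 and SIG4, at 1.14 CPM or less in these 6 libraries, 2.10 ± 0.70. In EA against E0 at 10 d, 4 of 6 sigma factor genes were lower and 0 higher (SIG2, SIG4, SIGE and SIGF), beside 25% and 24.2% of all genes tested. SIGA and SIGC were not called (adjusted p 0.872 and 0.759).

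The mitochondrial genome gives the other organellar background. Of 97 mitochondrial rows tested (152 listed), 68 were higher and 0 lower in ET against E0 at 5 d (median 1.92), beside 23.8% and 21.5% of all genes tested. Of the 114 plastid rows 75 were higher. In EA against E0 at 10 d, 42 mitochondrial rows were higher and 0 lower (median 0.96), beside 24.2% and 25% of all genes tested, while 0 plastid rows were higher and 22 lower. The mitochondrial share of all counts was 0.829 to 0.885% in E0 and 1.46 to 1.66% in ET at 5 d, and 0.813 to 0.899% in E0 and 1.27 to 1.58% in EA at 10 d.

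The remaining rows are accounted for by counts. Of the 133 plastid rows 114 were tested and 19 were too low, among them 7 with 0 counts in every library. The 37 tRNA rows (29 tested) summed to 10357 to 264955 counts a library. Of the 29, 10 were higher in ET against E0 at 5 d, beside 23.8% of all genes tested. The 15 protein-coding rows in the inverted repeat or with mostly non-unique sequence reached at most 1164 counts a library and are not read further. Every one of the 73 measured genes had at least 98 counts in each library. psbD and psbC share 53 bases on 1 strand, rps3 and rpl22 share 16 and atpB and atpE share 4, so reads there may be split or lost, and 7.11% of the 76-base windows of rbcL also occur in another genome of the plant. Of the windows of ycf1 18.1% were not unique, and of those of rps19 18.6%. The rps12 row was matched to an exon of 114 bases.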

How the data were processed

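RNA of 18 cultures was made into ScriptSeq libraries after removal of rRNA. Reads were trimmed, freed of rRNA with SortMeRNA and aligned to TAIR10 with STAR, and the authors deposited the raw counts of uniquely mapped reads per gene, not normalised. The strand setting, the annotation release and tool versions are not given in the sources used here. Each column was assigned to its sample by name, and columns of no sample numbered 0.

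Counts were tested with edgeR 4.0.16 (R 4.3.3), with filterByExpr, TMM scaling and the quasi-likelihood test in 1 fit of all 18 libraries. Of 34218 genes, 23539 were tested, and p-values were adjusted over all of them by the Benjamini-Hochberg method with a threshold of 0.05. The plastid scale used the same fit with median-ratio size factors over 73 plastid protein-coding genes. Levels (CPM) are counts over the TMM-scaled library size. Alternatives were DESeq2 1.42.0, library totals, a log2 fold change limit of 1, a replicate block, 6 libraries alone, and each library left out. The fits were tested on simulated data.

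Replicates are biological, so p-values measure the spread between cultures. Totals of 9098758 to 58364735 counts put the floor of 3 counts at 0.0514 to 0.330 CPM. Intervals and floors cover counting error only.

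Gene names came from the standard naming of the ATCG codes, written by hand. The reference notes name 6 codes, and all 83 codes with a single symbol follow the RefSeq gene order. The genes, lists and tests were chosen with earlier results of these data known. Named genes were fixed representatives of each role, and in each comparison the called genes of the largest and smallest log2 fold change. Others, such as ndhC, psaJ, atpE and the neighbours in the operons, were named after their values were seen. Rows of the inverted repeat, tRNA and rRNA are given as counts only.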

Additional observations from a re-analysis of the deposited data

Results flagged for a closer look

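The difference of the ET effect between 10 and 5 d was singled out because the interaction test of the difference itself passed the threshold (edgeR's quasi-likelihood test, Benjamini-Hochberg adjusted). It was lower at 10 d for 31 plastid genes. Among the genes chosen by role, the difference in log2FC was −1.98 for rpoC2, −1.48 for rpoC1, −1.81 for rpoB and −1.54 for rpoA, the subunits of the plastid RNA polymerase. It was −2.30 for matK, −2.15 for ycf1, −2.32 for rpl33 and −0.98 for rps4. For rbcL it was −1.46, for ndhF −1.50 and for ndhH −1.77. The calls of rps4, rbcL and ndhF held in 3, 4 and 7 of 12 fits without 1 library, and the others held in all 12. ET replicate c at 5 d, the highest of its replicates for 62 of 73 genes, enters each of these values.

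The EA effect was lower at 10 d than at 5 d for 2 plastid genes, by the same test.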

How the results depend on the processing

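Of 274 alternative values for 52 summary results, 74 moved by over 1.5 times or past the spread, and of 3679 settings of 283 gene results 3424 kept direction and call, 196 lost the call, 58 gained it and 1 reversed. The reversed one was psbM in ET against E0 at 5 d (−0.22 without ET replicate c, and up to 3.93 without the other libraries). The causes were not tested. Counts below are of plastid rows, higher and lower.

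Scaled within the plastid genes, ET/E0 gave 11 and 6 at 5 d and 0 and 5 at 10 d, ET/EA 7 and 6 at 5 d and 6 and 8 at 10 d, E0 10 d/5 d 4 and 5, ET 10 d/5 d 4 and 2, the ET interaction 3 and 10, EA/E0 at 10 d 8 lower and the EA interaction 1 lower. The median of all genes then shifted to −1.18 in ET/E0 at 5 d, 0.45 in EA/E0 at 10 d and −0.62 in ET/EA at 10 d. DESeq2 gave lower counts of 1 in ET/E0 at 5 d, 7 in EA/E0 at 5 d, 1 in E0 10 d/5 d, 30 in ET 10 d/5 d and 4 in the EA interaction, and 3 and 3 in EA 10 d/5 d. With library totals, EA/E0 at 5 d had 3 higher.

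With only the 6 libraries of the comparison, ET/E0 at 10 d gave 5 and 4, EA/E0 at 5 d 6 and 12, EA 10 d/5 d 0 and 2, and lower counts were 0 in ET/EA at 10 d, 1 in E0 10 d/5 d and 6 in ET 10 d/5 d. On the plastid scale these libraries gave 3 higher in ET/E0 at 5 d, 3 and 10 in EA/E0 at 5 d, and lower counts of 8, 4 and 2 in ET/E0, EA/E0 and ET/EA at 10 d. With a log2FC of at least 1 required, ET/E0 at 10 d gave 0 and 1, EA/E0 at 5 d 0 higher, EA/E0 at 10 d 11 lower, ET/EA at 10 d 14 higher, E0 10 d/5 d 15 higher, ET 10 d/5 d 8 lower and EA 10 d/5 d 0 lower. On the plastid scale it gave 1 higher in ET/E0 at 5 d, 0 higher in EA/E0 at 5 d, 3 and 2 in ET/EA at 5 d, and lower counts of 3, 3 and 1 in ET/E0, EA/E0 and ET/EA at 10 d.

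Whether replicate letters pair the samples was not settled. Of 45 same-letter pairs 19 correlated over 0.1 (−0.392 to 0.826, median 0.032), and the median of 90 other pairs was −0.006. Of 18 libraries 10 were closest to their own letter. The replicate block gave 5 higher in ET/E0 at 10 d, and on the plastid scale 12 lower in ET/E0 at 5 d and 1 higher in EA/E0 at 10 d. It moved no other count by over 1.5 times (71 and 0 in ET/E0 at 5 d).

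Without single libraries, the counts ran from 55 to 81 higher and 0 to 3 lower in ET/E0 at 5 d, 1 to 4 and 0 to 1 at 10 d, 0 to 1 and 2 to 6 in EA/E0 at 5 d, 13 to 24 lower at 10 d, 57 to 83 higher in ET/EA at 5 d, 14 to 36 and 0 to 1 at 10 d, 5 to 25 and 0 to 3 in E0 10 d/5 d, 5 to 32 lower in ET 10 d/5 d, 0 to 7 and 0 to 2 in EA 10 d/5 d, 23 to 37 lower in the ET and 0 to 8 lower in the EA interaction. On the plastid scale they ran from 5 to 10 and 3 to 16 in ET/E0 at 5 d, 1 to 4 lower at 10 d, 0 to 2 and 1 to 5 in EA/E0 at 5 d, 0 to 3 and 5 to 11 at 10 d, 3 to 11 and 2 to 10 in ET/EA at 5 d, and 3 to 8 and 2 to 9 at 10 d.

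Leaving psbA out moved the log2 ratio of plastid shares from 0.62 to 1.21 in ET/E0 and from 0.65 to 1.07 in ET/EA at 5 d, from 0.17 to 0.60 in E0 10 d/5 d and from −0.23 to 0.083 in EA 10 d/5 d. The mean class shares over 18 libraries moved with psbA and rbcL left out from 9.86 to 20.7% (photosystem I), 47.4 to 23.0% (photosystem II), 2.83 to 5.93% (cytochrome b6f), 5.54 to 11.7% (ATP synthase), 2.86 to 6.01% (NDH), 5.89 to 12.3% (ribosomal protein), 1.98 to 4.04% (rpo) and 7.80 to 16.4% (other). Per kb they were 5.94% (cytochrome b6f), 6.37% (ATP synthase), 8.58% (Rubisco, 15.8% by counts), 14.6% (ribosomal protein) and 0.779% (rpo).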
